A study of Arabidopsis thaliana with 3 samples.

Results

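RALF-like peptides (RALF stands for rapid alkalinization factor) are small secreted signalling peptides of plants, and their genes were followed here in germinating pollen and in seedlings of Arabidopsis thaliana. The members were all genes whose symbol in the platform's probe annotation starts with RALF and that had a probe set of their own, a probe set being the group of short oligonucleotides that reads 1 transcript on the array. This gave 11 genes of the 13350 genes with such a probe set, each read by a single probe set, so that no choice between probe sets was needed. The reference gene table of the species names 34 RALF genes, and the other 23 were not analysed here, among them RALFL4 and RALFL19, the peptides best known from the pollen tube. The groups were germinating pollen with pollen tubes (2 arrays) and whole seedlings with roots (1 array), all of the wild-type accession Col-0 with no transgene or agent stated. Pollen from open flowers lay for 6 h at 25°C in the dark on cellophane over germination medium (13.5% sucrose), by which time roughly 80% was germinating. Seedlings had 1 or 2 rosette leaves and grew on agar with sucrose. The sample label of the seedlings gives 18 h of light at 22°C and 6 h of dark at 18°C, whereas the day length in the series' text is 16 h with a night of 8 h. The sample labels list a lithium chloride precipitation for pollen RNA only, whereas the series' text gives it for RNA extraction in general.

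RALF peptides are made as longer precursors, carry conserved cysteines, and are read at the cell surface by receptor kinases of the CrRLK1L family together with small membrane-anchored co-receptors of the LORELEI family. In vegetative tissue the receptor is mainly FERONIA (FER), and binding changes the acidity of the cell wall, growth and immune signalling. In the pollen tube the receptors ANX1, ANX2, BUPS1 and BUPS2 take this part, and leucine-rich repeat extensins (LRX), proteins anchored in the cell wall, also bind RALF peptides there and keep the wall intact while the tube grows.

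Each array measured total RNA, 10 µg per labelling, as MAS5 signal in arbitrary units on a linear scale. The arrays came with the same 2% trimmed mean of 122, so a difference compares a gene's place on its own array. No label ties the pollen arrays to different plants or cultures, and the spread behind every p-value comes from that pair of arrays and can be technical. A floor of 42.3, the pooled median signal, was used, and the brightest control probe set that has no target had 47.1 on pollen array 1, 65.7 on pollen array 2 and 14.3 with seedling RNA. The 5 measured markers of the pollen tube, of 6 listed, were all higher in pollen, with signals from 1656 to 22964 on the pollen arrays against 2.10 to 272 in seedlings. All 6 markers of green tissue were lower in pollen, with signals from 3.02 to 86.3 in pollen against 4265 to 7219 in seedlings. Both measured tapetum markers (A9 and AMS, of 3 listed) were below the brightest control on each pollen array and were not tested. HTR10, a histone gene of sperm cells and the only measured one of 4 such markers, was higher in pollen, at 892 and 811 against 2.35 in seedlings. Of 4 markers of other flower organs 0 were called higher and 1, NGA1, was called lower. In the other 3 both pollen signals were above the seedling signal, but none passed the test. SPT had 106 and 131 in pollen against 39.6 in seedlings, RBE 91.0 and 54.8 against 11.3, and NGA2 107 and 102 against 56.2. The summed signal of the 4 was 310 and 290.3 in pollen against 195 in seedlings. Of the 2 root hair markers 1, EXPA7, was higher in pollen, with 121 and 101 against 22.0 in seedlings. The other, EXPA18, had 113 and 56.4 in pollen against 23.6 in seedlings. Both were under the floor in seedlings. In whole-tissue RNA, fewer cells of a type and less RNA per cell cannot be told apart.

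The family divided into 3 sets. RALFL25 and RALFL26 were bright in germinating pollen and dim in seedlings, RALFL22, RALFL24, RALFL31, RALFL33 and RALFL34 were lower in pollen, and RALFL18, RALFL27, RALFL28 and RALFL32 showed no called difference. A call here is an adjusted p under 0.05 from limma, two-sided, fitted across all 14815 tested probe sets with Benjamini-Hochberg adjustment. Differences are on the scale log2(signal + 14.7), which understates those of dim probe sets. It also shrinks the spread between dim pollen signals, such as 4.47 and 0.76 of RALFL31, that enters their SE and p-values. Since the seedling group has 1 array, its spread is assumed to be that of the pollen arrays, and an exact permutation test of 2 arrays against 1 could not give a p under 0.333.

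**Figure D1:**
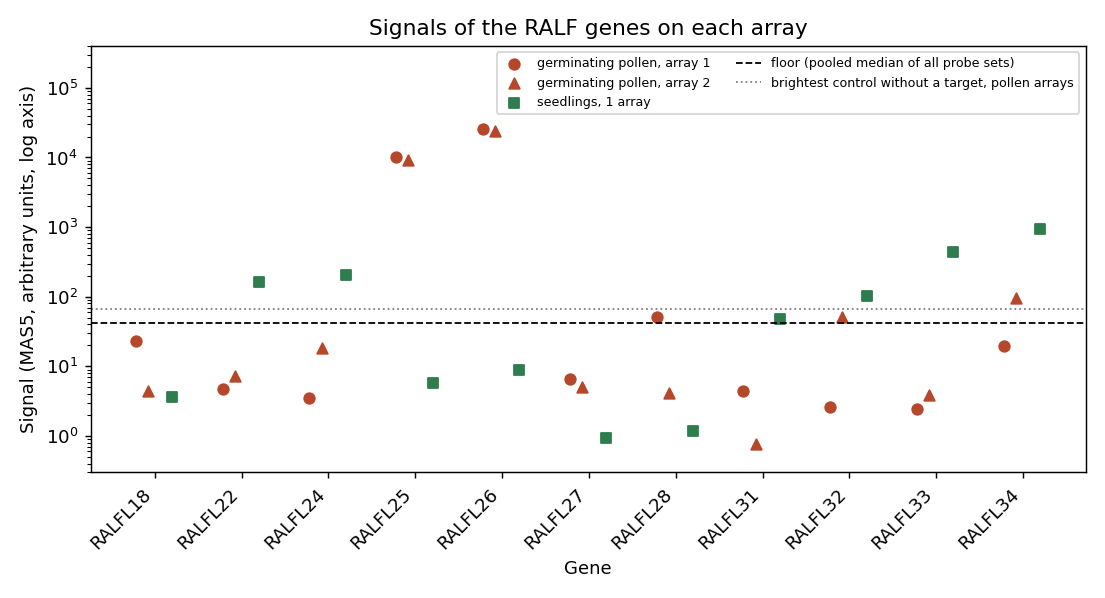
Signal of each RALF gene (MAS5, arbitrary units, log axis) on the 2 germinating pollen arrays (circles and triangles) and the seedling array (squares), with the floor of 42.3 (dashed) and the brightest control without a target on the pollen arrays, 65.7 (dotted). RALFL25 and RALFL26 have pollen points from 9216 to 26000 and seedling points under the floor. RALFL22, RALFL24, RALFL33 and RALFL34 have seedling points above both lines and pollen points under the floor, except RALFL34 on array 2 (97.1).

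RALFL26 (AT3G25170) had signals of 26000 and 23671 on the pollen arrays, against 8.74 on the seedling array. The pollen arrays lay close together, with a mean of 24835 ± 1647 (SD, n = 2), and far from the seedling array. Measured against the floor in place of the dim seedling signal, RALFL26 was at least 587-fold higher in pollen. Its log2 difference was 10.05 ± 0.10 (SE from the fit, limma adjusted p = 8.9e-06), and this was the 46th largest difference towards pollen among the 14815 tested probe sets.

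RALFL25 (AT3G25165) had signals of 9999 and 9216 on the pollen arrays, against 5.82 on the seedling array. The mean in pollen was 9608 ± 554 (SD, n = 2), a spread of 5.77% of the mean, and the groups did not overlap. RALFL25 was at least 227-fold higher in pollen against the floor, with a log2 difference of 8.87 ± 0.11 (SE, limma adjusted p = 1.2e-05), the 123rd largest. For both genes the seedling signal was under the floor and within the range of the controls without a target on that array (up to 14.3), so only a lower bound of the fold can be given.

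RALFL33 (AT4G15800), a peptide known as a ligand of FER that dampens immune signalling, had 2.45 and 3.84 on the pollen arrays, against 444 on the seedling array. Both pollen signals were far under the floor and under the brightest control of their array, while the seedling signal was well above both. For such genes the pollen level was replaced, on each array, by the higher of the floor and the brightest control without a target, and RALFL33 was then at least 7.99-fold lower in pollen. Its log2 difference was -4.68 ± 0.44 (SE, limma adjusted p = 0.00256).

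RALFL34 (AT5G67070) is known from roots, where it acts through the receptor THE1 in lateral root initiation, and from ovules, where it prompts the arriving pollen tube to burst. Its signals were 19.7 and 97.1 in pollen, against 947 in seedlings. The pollen arrays disagreed on this gene, since array 1 was under the floor and array 2 was above the brightest control, and both were below the seedling array. With 1 of 2 pollen arrays measured, no fold over the group is given, and on array 2 alone the seedling signal was 9.75 times the pollen signal. The log2 difference was -3.95 with an SE of 0.78 (limma adjusted p = 0.0173), with a 95% interval from -6.12 to -1.79.

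RALFL22 (AT3G05490), known from responses to salt through FER and LRX proteins, had 4.76 and 7.33 on the pollen arrays, against 162 on the seedling array. RALFL24 (AT3G23805) had 3.49 and 18.5 in pollen, against 206 in seedlings. In both genes each pollen array was under the floor and the seedling array was well above it. RALFL22 was at least 2.91-fold lower in pollen (log2 difference -3.09 ± 0.35, SE, limma adjusted p = 0.00381) and RALFL24 at least 3.70-fold lower (log2 difference -3.16 ± 0.57, SE, limma adjusted p = 0.0132). The call of RALFL24 was lost when an offset of 1 was added in place of 14.7 (log2 difference -4.47, limma adjusted p = 0.0529).

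RALFL31 (AT4G13950) had 4.47 and 0.76 on the pollen arrays, against 47.3 on the seedling array. It was called lower (log2 difference -1.85 ± 0.20, SE, limma adjusted p = 0.00344), but its seedling signal was only just above the floor. That signal was under the geometric mean of the limits of the pollen arrays (47.1 and 65.7), so no lower bound of the fold can be given. RALFL31 no longer entered the test under scaling to the 75th percentile of each array.

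RALFL32 (AT4G14010) had 2.61 and 50.8 on the pollen arrays, against 101 on the seedling array. Both pollen signals were below the seedling signal, but array 2 was above the floor and under the brightest control, and the arrays differed so much that the 95% interval of the log2 difference ran from -4.34 to 0.78 (estimate -1.78, limma adjusted p = 0.173). A difference of either sign is thus within the interval. RALFL28 (AT4G11510) had 51.3 and 4.11 in pollen, against 1.17 in seedlings, so that it passed the floor on 1 pollen array only and was not tested. RALFL18 (AT2G33130) had 23.1 and 4.50 in pollen, against 3.62 in seedlings. RALFL27 (AT3G29780) had 6.66 and 4.98 in pollen, against 0.93 in seedlings. RALFL18 and RALFL27 were thus under the floor on all 3 arrays, where signals cannot be told from controls without a target in pollen, and neither was tested.

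**Figure D2:**
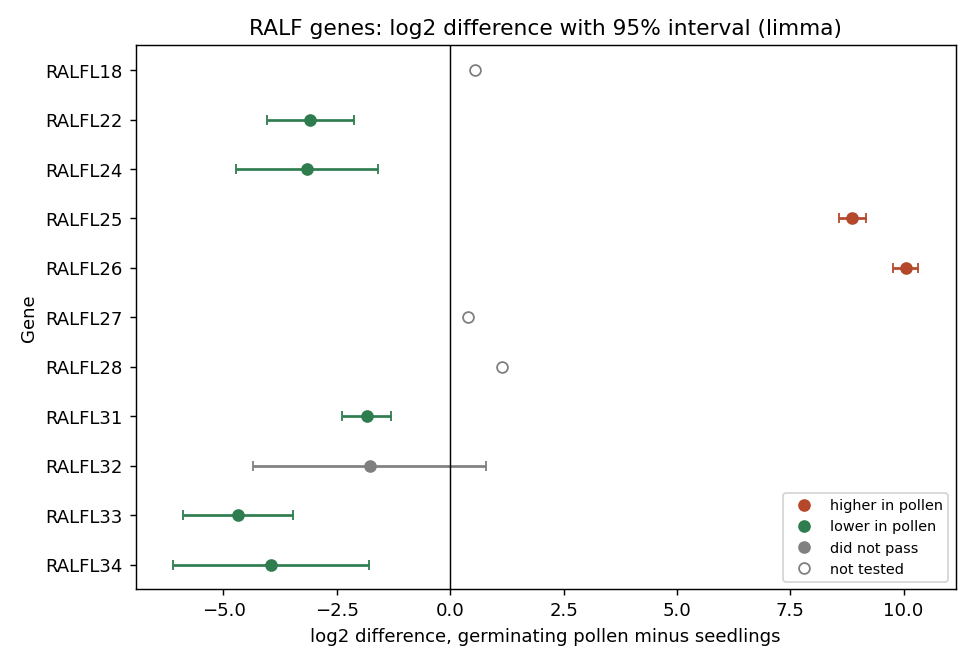
Log2 difference of each RALF gene, germinating pollen (2 arrays) minus seedlings (1 array), as points, with 95% intervals from limma as bars for the 8 tested genes. RALFL25 and RALFL26 lie at 8.87 and 10.05 with short bars, while RALFL32 and RALFL34, whose pollen arrays disagreed, have the wide bars.

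Of the 11 genes 8 were tested, 2 of them were called higher and 5 lower, and 1 did not pass. Across all tested probe sets 22.1% were called higher and 31.7% lower. Each of the 8 entered the test through the tissue in which it was brighter, so the counts over the tested genes describe them and support nothing further. The median log2 difference over all 11 genes was -1.78, the value of RALFL32, which did not pass. The median was 0.07 over all 22746 probe sets that are not controls and -0.61 over the tested ones. Both pollen signals were above the seedling signal in 5 of 11 genes (44.4% of all probe sets) and below it in 6 of 11 (42.2% of all probe sets). The 5 include RALFL18, RALFL27 and RALFL28, which were not tested. Their signals were under the floor except that of RALFL28 on pollen array 1 (51.3). By size alone, with the seedling signal (or the floor, if higher) exceeded at least 10 times by both pollen signals, RALFL25 and RALFL26 were higher (4.24% of all probe sets). By the reverse rule against the floor RALFL33 alone was lower (4.95% of all probe sets), and RALFL34 joined it when pollen array 2 was left out. With the brightest control of each pollen array as the limit, which gives the bound of 7.99-fold above, 0 RALF genes were at least 10-fold lower (3.86% of all probe sets), a setting added after the data were seen.

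**Figure D3:**
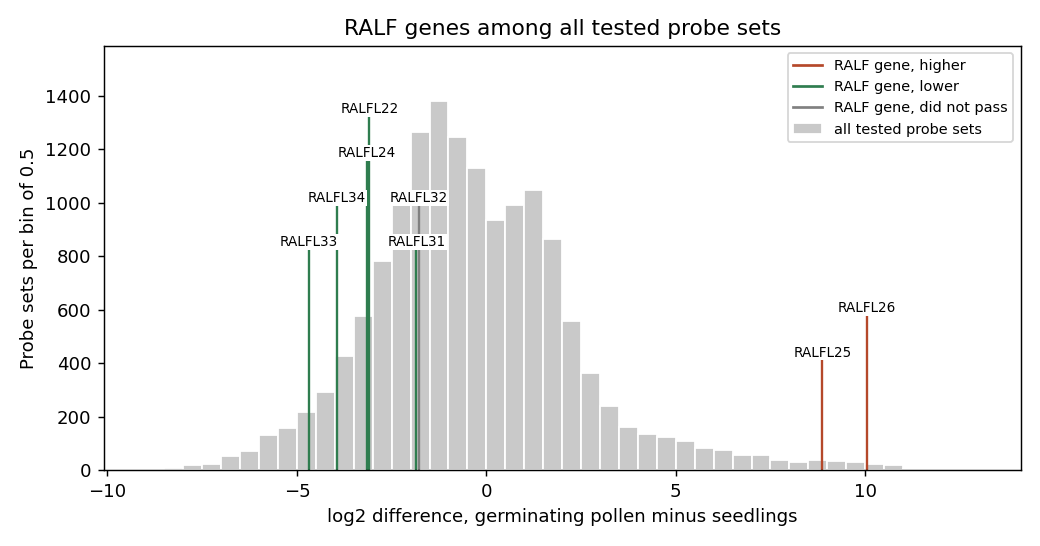
Number of tested probe sets per bin of 0.5 in the log2 difference, germinating pollen minus seedlings (grey bars, 14815 probe sets), with lines at the 8 tested RALF genes, whose heights only separate the names. RALFL25 and RALFL26 stand in the sparse right tail, beyond the 95th percentile of 4.42, RALFL33 lies just under the 5th percentile of -4.40, and the other RALF genes lie inside that range.

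The sizes of these differences depend on the scaling of the arrays. Arrays scaled by the hybridisation spikes, bacterial and phage transcripts added before hybridisation, shifted the median log2 difference of all probe sets by -1.64, and scaling by the 75th percentile shifted it by 0.27. Under spike scaling RALFL26 was at 8.60 and RALFL25 at 7.58, RALFL33 at -6.43 and RALFL34 at -6.03, and RALFL32 was called lower (log2 difference -3.59, limma adjusted p = 0.0225). The spikes were 4.76 and 4.90 times as bright on the pollen arrays as on the seedling array, and the part of this in the differences was not tested.

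**Figure D4:**
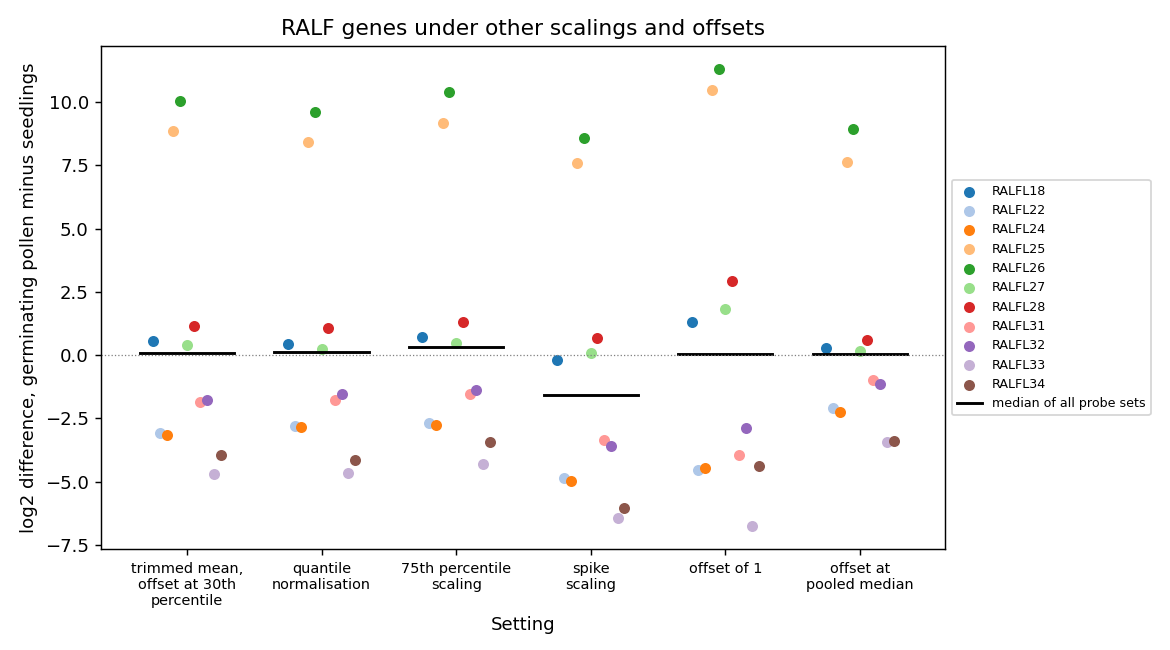
Log2 difference of the 11 RALF genes (points, 1 colour per gene), germinating pollen minus seedlings, under the scaling and offset used in the text and 5 others, with the median of all probe sets as a black line. RALFL25 and RALFL26 stay between 7.58 and 11.32 in every column, and the line lies at -1.57 under spike scaling.

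RALFL25 and RALFL26 are close neighbours in the genome. In the gene order of the TAIR10.1 reference, used here for order only, a single gene for a non-coding RNA stands between them. AT3G25160, next to RALFL25 on the outer side, had 149 and 104 in pollen compared with 30.4 in seedlings, just called higher (log2 difference 1.63, limma adjusted p = 0.0488). AT3G25150, a further gene out, had 2.64 and 3.06 in pollen, 124 in seedlings, and was lower (log2 difference -2.98, limma adjusted p = 0.00196). Over all RALF genes, the 5 genes on each side included 34 other measured genes, of which 16 were tested, 4 called higher and 3 lower, beside 22.1% and 31.7% over all tested probe sets. Called neighbours of the RALF genes that were lower went both ways. AT4G15790, next to RALFL33, was lower, with 2.95 and 6.09 on the pollen arrays, against 101 on the seedling array. AT3G05500, next to RALFL22, was higher, with 3400 and 3191 on the pollen arrays, against 415 on the seedling array (log2 difference 2.94, limma adjusted p = 0.000138). AT4G13960, the only measured neighbour of RALFL31, was higher (log2 difference 2.47, limma adjusted p = 0.0158), and RALFL24 had AT3G23840 higher and AT3G23760 lower near it.

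The genes with the pattern most like that of RALFL26 were sought by the Euclidean distance over the log2 signals of the 3 arrays, among 13349 other genes. The nearest were AT3G62180 (distance 0.12), AT2G15880 (0.16), AT3G19020 (0.19), AT2G26450 (0.19) and AT5G48140 (0.28). AT2G15880 and AT3G19020 are LRX10 and LRX8, extensins described below. For RALFL34, the member with the highest seedling signal, the nearest were AT1G75460 (0.20), AT1G54500 (0.32), AT4G10480 (0.33), AT4G26230 (0.37) and SKU5 (0.42). In all of them pollen array 2 was brighter than pollen array 1, as for RALFL34, which follows from choosing them by these same signals. With 3 arrays, likeness says only that the signals were of a similar size on each.

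Receptor genes were called in both directions, FER and THE1 lower in pollen and ANX1, ANX2, BUPS1 and BUPS2 higher. Of 36 genes listed as receptors, co-receptors and partners, 18 were measured, 15 tested, 10 called higher in pollen and 2 lower, beside the 22.1% and 31.7% over all tested probe sets. The list was written with earlier results of these data known and includes genes known from the pollen tube. Each called gene entered the test only through the tissue in which it was brighter. The counts thus describe the listed genes and support nothing further. Among receptor kinases FER, the main vegetative receptor, had 3.90 and 4.58 on the pollen arrays, against 306 on the seedling array. Both pollen arrays were under the floor, and FER was at least 5.50-fold lower in pollen (log2 difference -4.08 ± 0.41, SE, limma adjusted p = 0.00288). THE1, the receptor through which RALFL34 acts in roots, had 16.6 and 21.4 on the pollen arrays, against 170 on the seedling array, and was at least 3.05-fold lower (log2 difference -2.46 ± 0.49, SE, limma adjusted p = 0.0173). The call of THE1 was lost when no filter on dim probe sets was used (limma adjusted p = 0.0534). The pollen tube receptors ANX1, ANX2, BUPS1 and BUPS2 were all higher in pollen, with log2 differences of 8.25, 9.37, 9.28 and 7.16. CVY1 did not pass, with 51.9 and 48.6 in pollen against 75.6 in seedlings.

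Among the extensins LRX8, LRX9, LRX10 and LRX11, those of the pollen tube, had log2 differences of 10.21, 10.51, 10.01 and 8.52. LRX5, a vegetative extensin, had 117 and 176 on the pollen arrays, against 40.3 on the seedling array, and was just called higher (log2 difference 1.53, limma adjusted p = 0.0481), a call that was lost under 5 of 9 alternatives and turned to -0.39 under spike scaling. LRX4, also vegetative, did not pass, with 51.0 and 65.5 in pollen against 88.9 in seedlings, and LRX6 and LRX7 passed the floor on pollen array 2 only. MRI, a cytoplasmic kinase acting after ANX1 and ANX2, was higher, with 3053 and 2658 in pollen against 5.05 in seedlings. S1P, the protease that cuts some RALF precursors, did not pass. Its signals of 16.3 and 126 in pollen lay on either side of the 97.9 in seedlings, and the interval of its log2 difference ran from -3.69 to 2.15. CML38, a calmodulin-like protein known to bind RALF1, was under the floor on all 3 arrays. The LORELEI-family co-receptors and the NADPH oxidases of the list were not analysed here.

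**Figure D5:**
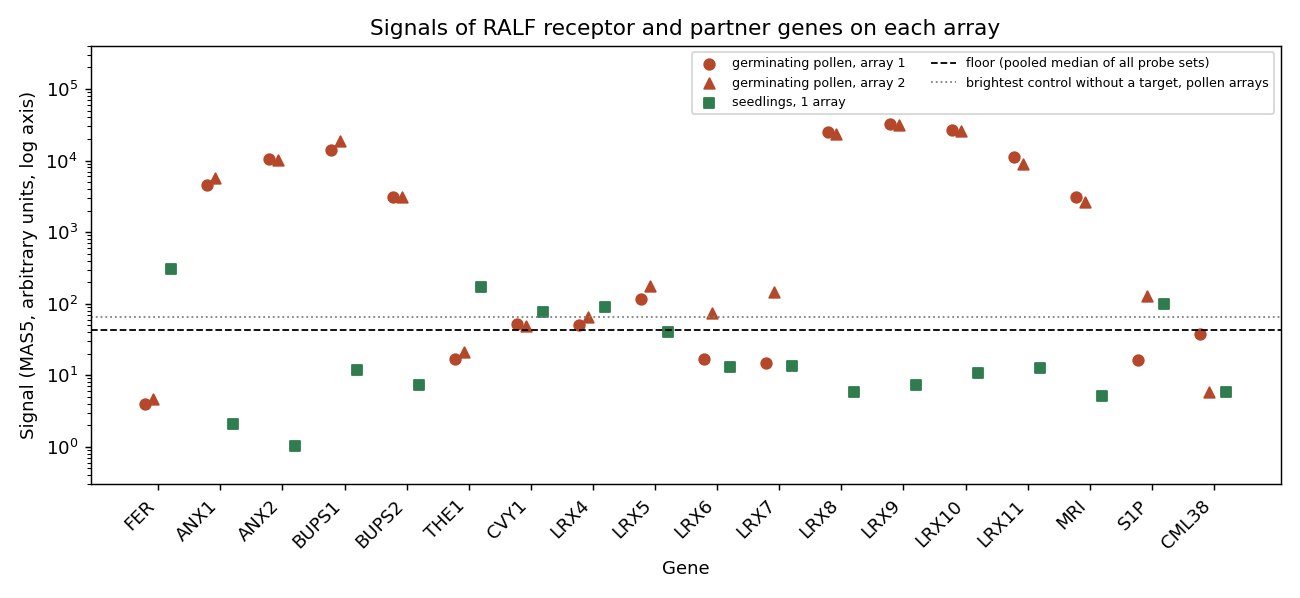
Signal (MAS5, arbitrary units, log axis) of the 18 measured receptor and partner genes on the 2 germinating pollen arrays (circles and triangles) and the seedling array (squares), with the floor of 42.3 (dashed) and the brightest control on the pollen arrays, 65.7 (dotted). FER and THE1 have seedling points of 306 and 170 above both lines and pollen points below them, and the 4 pollen tube receptors, LRX8 to LRX11 and MRI have the reverse.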

How the data were processed

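The deposited values are MAS5 intensities on a linear scale, 1 per probe set, per the submitters' processing notes, and the series' text names GCOS 1.2 and Excel 2004. The genome build is not given in the sources used here, so no coordinates are printed. Of 22810 probe sets, 64 controls were left out. Signals were rescaled to equal 2% trimmed means, and 14.7, their 30th percentile, was added before log2. Probe sets above 42.3, the pooled median, in seedlings or on each pollen array entered a two-sided limma fit (version 3.58.1, R 4.3.3, eBayes with trended variance), and p-values were adjusted by Benjamini-Hochberg over all of them, 0.05 being the threshold. The fit had 1 residual degree of freedom, and the number of arrays limits the precision. Intervals are at 95%. Lower bounds of folds use the arithmetic mean in pollen or the geometric mean of the limits of both pollen arrays. Names of the RALF genes and of the genes most like them came from the platform annotation. Partner and marker names came from the lists, matched by locus. Loci came from the TAIR10.1 table, the RALFL22 locus by symbol. All RALF genes, all measured partners and the 5 genes most like the member brightest in each tissue were named. The members and lists were chosen with earlier results of these data known. A planned description of protein and promoter sequences was not made here. Alternatives changed the scaling, the offset, the filter, the probe set rule, the variance trend and the pollen arrays used.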

Additional observations from a re-analysis of the deposited data

How the results depend on the processing

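No paired analysis was possible because the seedling group has 1 array and no replicate number. Under 9 alternatives the counts of 2 RALF genes called higher and 5 lower stayed within 1.5 times, and RALFL22, RALFL25, RALFL26, RALFL33 and RALFL34 were called in the same direction under each of them. RALFL31 was not tested under 75th percentile scaling (log2 difference -1.54). RALFL18, not tested, was at -0.19 under spike scaling, against 0.55. Partners called lower numbered 4 under spike scaling and 1 with no filter, against 2. CVY1 (log2 difference -2.42) and LRX4 (-2.50) were those added under spike scaling. Against the floor, RALF genes at least 10-fold lower by size numbered 4 under spike scaling, against 1, and 1 to 2 with a pollen array left out, and 3 were at least 4-fold lower. Against the brightest control of each pollen array, a limit added after the data were seen, 0 were at least 10-fold lower. Those higher stayed at 2 throughout. The cause of these changes was not tested beyond what each setting alters. Each gene had 1 probe set, so averaging probe sets changed no RALF value. Signals under the controls without a target limit every pollen value of the genes called lower except RALFL34 on array 2.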
